A study of Homo sapiens with 44 samples.

Results

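Fatty acid uptake and oxidation was followed through 36 named genes, all of which were found among the 60499 genes measured. They were chosen by name for their place in the pathway, with earlier results of these data known. They comprise 4 genes of uptake, binding and lipolysis, 3 acyl-CoA synthetases, 5 genes of the carnitine shuttle, 4 acyl-CoA dehydrogenases, 7 enzymes of hydration, the second oxidation and thiolysis, 3 auxiliary enzymes for unsaturated fatty acids, 3 genes of electron transfer and 7 transcriptional regulators. After low counts were filtered out, 35 of the 36 could be tested. The gene that could not was FABP4, the fatty acid binding protein of adipocytes, which was at 0 CPM (counts per 1000000 counts) in every library of days 9 and 11 and at most 0.538 CPM at day 90.

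The cells belonged to H1, a long-established line of human embryonic stem cells, and were driven towards the cardiovascular lineage in culture. The pluripotent wells were coated with laminin LN-521 alone, and the wells of days 0, 1, 3, 5, 7, 9, 11, 14, 20, 30 and 90 carried LN-521 with LN-221. Confluent cells received the GSK3 inhibitor CHIR99021 at day 0 and IWP2, which blocks Wnt production, at day 3. Nutristem medium at day 0 gave way to RPMI with B27 lacking insulin for days 1 to 9 and with the CTS B-27 supplement from day 11. There were 44 libraries in 12 groups, with 5 wells each at days 5, 7, 9 and 11 and 3 in each other group. All come from this 1 line, and the wells of days 5 to 90 share both Wnt-pathway drugs. The wells of day 1 were taken before IWP2 was given. The labels describe no purification of cell types. The wells carry no label that says they came from separate differentiations, so p-values measure the spread between these wells, which may be technical.

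Long-chain fatty acids enter the cell with the help of CD36, are carried by FABP3, and are activated to acyl-CoA by the ACSL enzymes. CPT1, in the outer mitochondrial membrane, and CPT2, in the inner membrane, pass the acyl group across as carnitine esters, and the matrix enzymes then shorten the chain in repeated cycles. The electrons of the first step reach the respiratory chain through ETF and its oxidoreductase ETFDH. The heart after birth draws much of its energy from this pathway, whereas stem cells and the early embryonic heart rely more on glycolysis. PPAR and ERR nuclear receptors with their PGC-1 coactivators (PPARGC1A and PPARGC1B) are known to drive these genes.

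Total estimated counts ranged from 6937136 to 33498022 per library, with a median of 26010763, so that 3 counts correspond to 0.0919 to 0.41 CPM. The RNA integrity number, a score that is 10 for intact RNA, ran from 7.4 to 10.0. It was 8 or lower in 5 libraries, among them replicate 2 of day 11, replicate 10 of day 30 and replicate 5 of day 90. Replicates 1 and 2 of day 11 stood apart from replicates 5, 6 and 7. Their 10 hepatocyte and visceral endoderm markers summed to 7020 and 12500 CPM, against 380 to 480 CPM in the other 3 wells. Their 10 cardiomyocyte markers summed to 12500 and 7090 CPM, against 23600 to 30300 CPM. Replicate 2 of day 9 was nearest to them, with 8980 CPM of the hepatocyte markers and 10000 CPM of the cardiomyocyte markers, which were at 926 to 2970 and 17600 to 24500 CPM in the other day 9 wells. In such bulk samples, fewer cells of a type and less RNA per cell cannot be told apart.

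From day 9 to day 90, 18 of the 35 tested genes rose and 2 fell (edgeR's quasi-likelihood test, Benjamini-Hochberg adjusted p under 0.05 over all 22955 genes). Among all genes tested, 18.7% rose and 19.7% fell. The median log2 fold change was 0.64 over the 35 genes and -0.02 over all genes. The largest rises were those of CD36 and FABP3, which bring fatty acids into the cell and carry them there. Smaller rises came in HADHB, ACAT1, DECR1 and ETFDH of the oxidation steps and in the regulators PPARD, PPARGC1B and ESRRG. CPT1B, the muscle form of the entry enzyme, was lower at day 90 than at day 9, and CPT1A was higher. With TPM (transcript abundance scaled for length and to 1 total per library) in place of counts, 6 genes rose and 5 fell, and 14 rose and 4 fell with TPM rescaled to protein-coding genes. Among the 18 rises, TPM also ended the calls of CPT1A (0.43, adjusted p = 0.38), ESRRG (0.95, 0.14), PPARGC1B (1.03, 0.065) and DECR1 (0.76, 0.050). These scalings moved the median of all genes by -0.54 and -0.19 on the log2 scale, and rises are meant relative to the other genes of a library. When at least a 2-fold difference was also asked for, 10 members rose and 0 fell (11.9% and 12% of all genes).

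**Figure D1:**
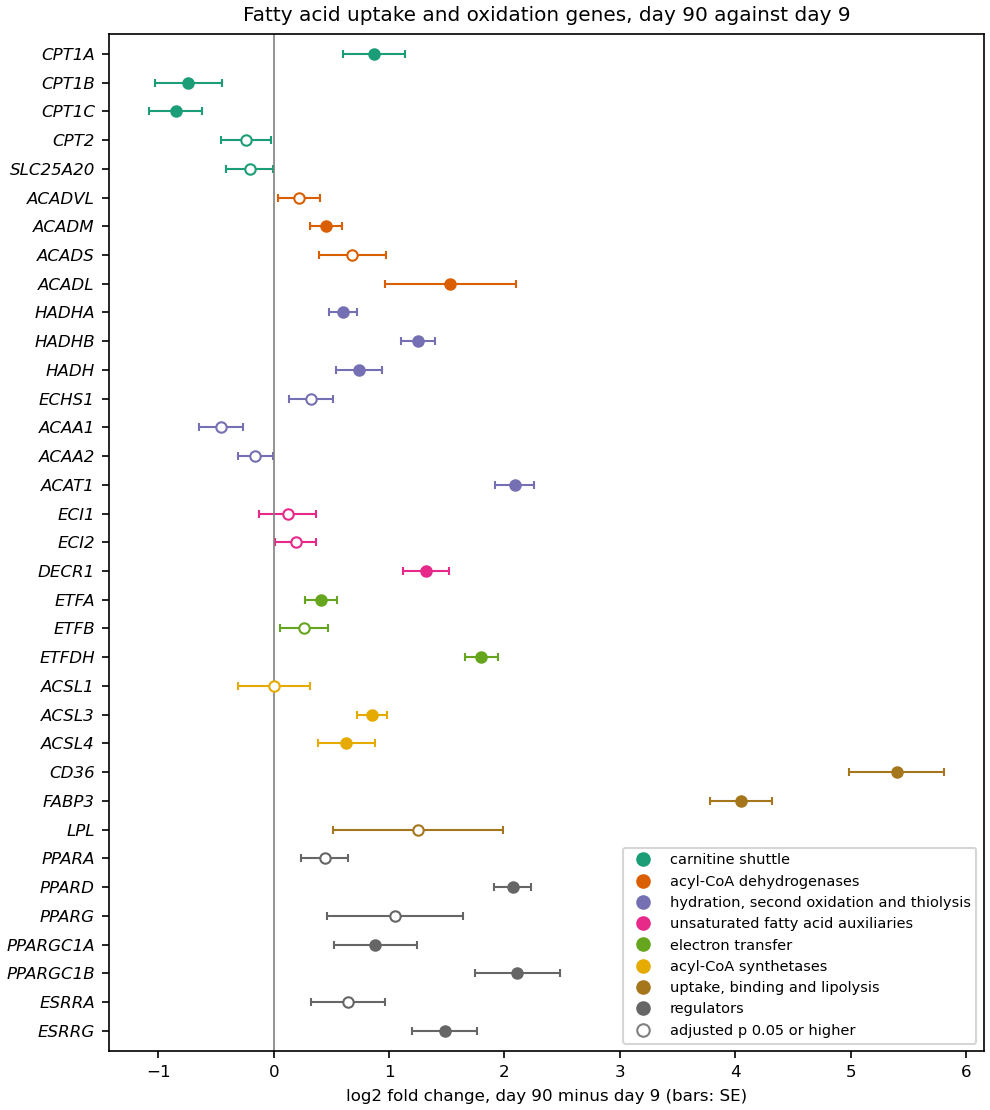
Log2 fold change from day 9 to day 90 (x axis; points with SE bars) for the 35 tested genes, coloured by role; filled points passed adjusted p under 0.05. CD36 (5.40) and FABP3 (4.05) lie far to the right of the rest, and CPT1B (-0.74) and CPT1C (-0.85) are the filled points left of 0.

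CD36, a membrane protein that takes up long-chain fatty acids, showed the largest difference. It was at 1.25, 2.40, 2.62, 3.29 and 4.58 CPM in the wells of day 9. At day 90 it was at 85.1, 119 and 153 CPM, so the lowest well of day 90 stood above every well of day 9. The log2 fold change was 5.40 (SE 0.41, adjusted p = 3.6e-13), a 42.1-fold difference of means. Leaving out each of these wells in turn gave 5.18 to 5.64. Most of this came late. CD36 did not pass the test from day 9 to day 11 (log2 fold change -0.31, 95% interval -0.996 to 0.382). The wells of day 14 held 2.48, 3.12 and 4.74 CPM, and those of day 20 held 5.62, 7.52 and 9.71 CPM. From day 11 to day 30 it rose by 3.42 on the log2 scale (SE 0.39, adjusted p = 3.1e-08). The wells of day 30 were uneven, at 9.59, 13.7 and 50.4 CPM, and the highest was replicate 10, which had an integrity number of 7.4 and 11715812 counts. Without it the rise from day 11 was 2.32 (adjusted p = 5.9e-06). From day 30 to day 90 CD36 rose by 2.29 (SE 0.44, adjusted p = 0.00075), and by 3.36 without that well (adjusted p = 5.5e-06). That last call was lost when only the libraries of days 30 and 90 entered the fit (2.20, adjusted p = 0.32).

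FABP3, the fatty acid binding protein of heart muscle, reached the highest level of the uptake genes. Its day 9 wells were at 23.3, 29.2, 37.7, 41.6 and 61.9 CPM, and its day 90 wells at 579, 609 and 731 CPM. These ranges lay far apart, with a log2 fold change of 4.05 (SE 0.27, adjusted p = 2.7e-14). FABP3 was also among the 3 members that rose from day 9 to day 11, when it went to 32.7, 47.1, 88.9, 92.4 and 93.0 CPM (log2 fold change 0.87, SE 0.23, adjusted p = 0.029). The 2 low values at day 11 were those of replicates 2 and 1, the wells rich in hepatocyte markers. Without that pair the rise was 1.24 (adjusted p = 0.00047). The call was lost, with adjusted p of 0.075 to 0.11, when replicate 2, 3 or 4 of day 9 or replicate 5, 6 or 7 of day 11 was left out. FABP3 then rose by 2.15 from day 11 to day 30 (SE 0.26, adjusted p = 1.2e-07), where it was at 241, 314 and 388 CPM. From day 30 to day 90 it rose by 1.03 (SE 0.30, adjusted p = 0.027), with no overlap of the wells. That last call was lost in 7 of 15 alternatives, among them those without replicate 1 or 3 of day 30 or replicate 4 or 5 of day 90 (adjusted p 0.065 to 0.17). With TPM the step was 0.22 (adjusted p = 0.67).

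CD36 and FABP3 were the genes with the largest rise, and RefSeq's promoter table (GRCh38.p14) holds the bases before their transcription starts. The 250 bases upstream of the FABP3 start and of 2 of the 6 CD36 starts in the table are shown, read along the gene's strand, because these windows held the same TATA-like run TATTTAA, which is in capitals.
FABP3, chr1:31373077-31373326, minus strand: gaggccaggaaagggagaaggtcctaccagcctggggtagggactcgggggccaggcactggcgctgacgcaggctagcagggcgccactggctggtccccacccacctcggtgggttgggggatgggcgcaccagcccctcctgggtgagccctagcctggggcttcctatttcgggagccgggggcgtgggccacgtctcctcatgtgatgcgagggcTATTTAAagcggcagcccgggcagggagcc
CD36, chr7:80601957-80602206, plus strand: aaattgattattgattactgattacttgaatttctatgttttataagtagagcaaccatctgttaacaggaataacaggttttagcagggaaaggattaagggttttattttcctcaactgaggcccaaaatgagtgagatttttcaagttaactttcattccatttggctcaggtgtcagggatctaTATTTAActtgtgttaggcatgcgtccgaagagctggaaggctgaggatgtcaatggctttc
CD36, chr7:80638392-80638641, plus strand: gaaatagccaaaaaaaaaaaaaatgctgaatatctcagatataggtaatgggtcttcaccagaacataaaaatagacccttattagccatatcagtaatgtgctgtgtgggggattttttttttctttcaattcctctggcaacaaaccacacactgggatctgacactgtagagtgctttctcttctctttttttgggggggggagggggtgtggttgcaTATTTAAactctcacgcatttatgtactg
The run lay at -30 to -24 from the FABP3 start, and at -62 to -56 and -29 to -23 from these CD36 starts. This motif was chosen after the promoters had been read. On either strand it was in 5 of the 60 windows of the members (8.33%) and in 4.17% of all 35116 windows of the same length. Counted per gene over any of its starts, it was in 4 of the 30 members with an entry (FABP3, CD36, ACSL1 and ESRRG) and in 5.12% of 27305 genes, and genes with more starts have more chances of a match. A direct repeat of AGGTCA with 1 base between the copies, bound by PPAR with RXR, was in no member's window and in 0.0171% of all windows. The ERR element TCAAGGTCA was likewise in no member's window and in 0.319% of all. The core AGGTCA lies within both longer motifs and was added after these had given no match. It was in 5 of the members' windows (8.33%), those of ESRRG and PPARG, and in 12.1% of all windows. The PPARG windows chr3:12288810-12289059 and chr3:12288820-12289069 overlap and hold the same copy of the core, which was thus counted in each. RefSeq lists several starts for CD36, ACSL1, ESRRG and PPARG, and gene-level counts do not tell which start was used. There was no entry for ACAA1, FABP4, LPL, CPT1B, DECR1 and ETFDH.

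LPL, the secreted lipase that frees fatty acids from lipoproteins, was at 2.69, 3.38 and 4.14 CPM at day 30 and at 30.3, 34.1 and 46.3 CPM at day 90. That rise was 3.45 on the log2 scale (SE 0.94, adjusted p = 0.017). It fell short of the threshold without replicate 1 or 3 of day 30 or replicate 5 of day 90 (adjusted p 0.05 to 0.079). Against day 9 the difference did not pass (log2 fold change 1.25, 95% interval -0.201 to 2.69). Replicate 10 of day 9 was at 52.3 CPM and the other 4 wells at 5.54 to 8.0 CPM. The well numbered 10 at day 7 was likewise high, at 70.6 CPM against 2.90 to 10.1 CPM. At day 11 LPL was at 0.572 and 0.461 CPM in replicates 1 and 2 and at 5.43 to 8.23 CPM in the other 3 wells. FABP4 stayed below 0.6 CPM in all 44 libraries. Of 6 adipocyte markers none of the 4 that could be tested passed from day 9 to day 90, with a median log2 fold change of 1.51. The adipokine ADIPOQ was at 0.0299 ± 0.0293 and 0.225 ± 0.171 CPM (log2 fold change 2.69, adjusted p = 0.096). LIPE was at 5.94 ± 0.437 and 7.52 ± 1.26 CPM on these days, and PLIN1 at 0.313 ± 0.15 and 0.158 ± 0.0795 CPM. Leptin and CIDEA, but not CIDEC, had at most 3 counts in every day 90 well. At day 9 ADIPOQ and leptin had at most 3 counts in every well, so the median of 1.51 draws on values near the floor.

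**Figure D2:**
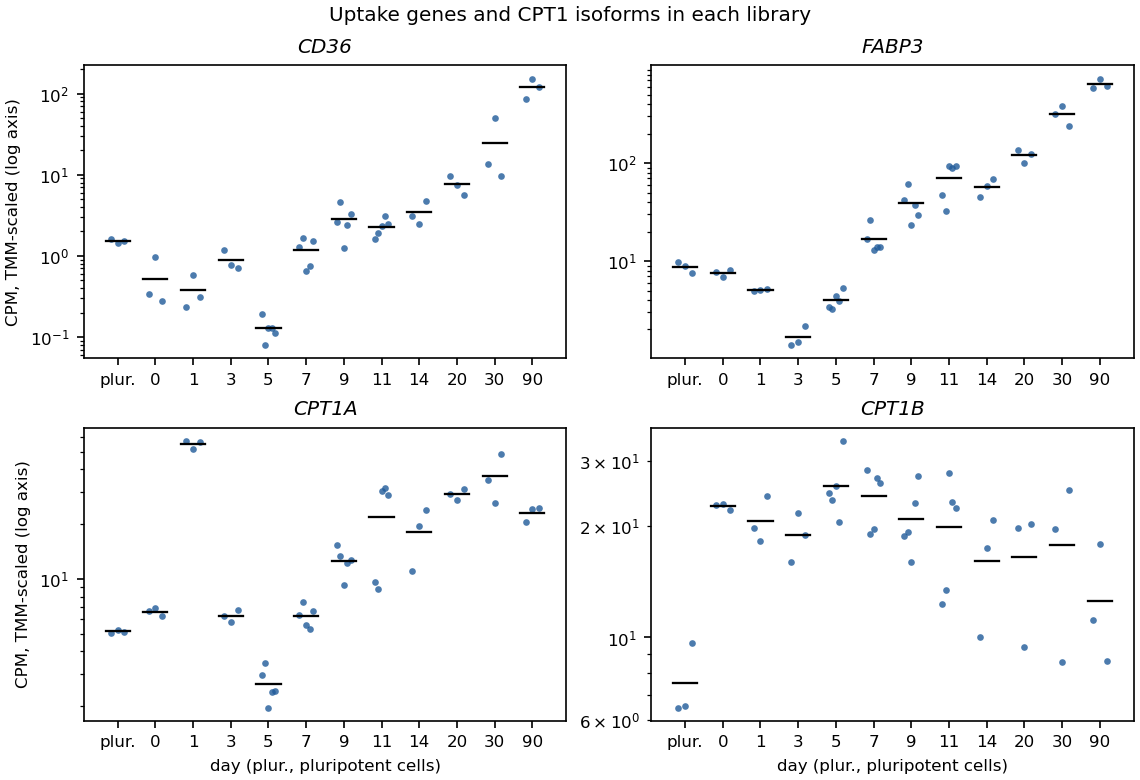
Level of CD36, FABP3, CPT1A and CPT1B in each library (points; CPM on a log axis, horizontal bar the group mean) in pluripotent cells and by day. CD36 and FABP3 climb from day 20 to day 90, CPT1A has a separate peak at day 1 (mean 55.0 CPM), and CPT1B is between 8.63 and 17.9 CPM at day 90.

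The synthetases that turn fatty acids into acyl-CoA differed among themselves. ACSL3, found on the endoplasmic reticulum and lipid droplets, rose from 107 ± 7.71 CPM at day 9 (SD, n = 5) to 194 ± 55.9 at day 90 (SD, n = 3), a log2 fold change of 0.85 (SE 0.13, adjusted p = 3e-06), but with TPM it was 0.11 (adjusted p = 0.88). ACSL4, which prefers arachidonic acid, rose by 0.63 (SE 0.25, adjusted p = 0.039), a call lost in 9 of 17 alternatives, among them those without replicate 1, 2 or 3 of day 9 or replicate 2 or 5 of day 90 (adjusted p 0.054 to 0.15). ACSL1, the main form in heart muscle, was at 72.2 ± 17.2 CPM at day 9 and 72.2 ± 2.84 at day 90, with a 95% interval of -0.604 to 0.606 for the log2 fold change. Its large rise had come before: it was at 12.3, 13.5 and 14.5 CPM at day 0 and at 53.8, 58.5, 69.9, 83.5 and 95.2 CPM at day 9 (log2 fold change 2.43, SE 0.35, adjusted p = 3e-07). ACSL1 thus had its rise by day 9, and in that interval ACSL3 fell by 0.50 and ACSL4 by 0.67 (adjusted p 0.0022 and 0.022).

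Of the 5 carnitine shuttle genes, 1 rose and 2 fell from day 9 to day 90, and the shares of all genes (18.7% and 19.7%) apply to the counts of the roles that follow. CPT1B, the CPT1 of heart and skeletal muscle (chr22:50568861-50578465 in GRCh38), was at 16.0, 18.8, 19.2, 23.0 and 27.3 CPM at day 9. At day 90 it was at 8.63, 11.1 and 17.9 CPM, so the highest day 90 well lay within the range of day 9. The log2 fold change was -0.74 (SE 0.29, adjusted p = 0.044). The fall was lost in 7 of 18 alternatives, among them those without replicate 3 or 4 of day 9 (adjusted p 0.074 and 0.11), without replicate 2 or 5 of day 90 (0.13 and 0.22), and without the libraries of low RNA integrity (log2 fold change -0.50, adjusted p = 0.11). Over the 18 alternatives the estimate ran from -1.41 to -0.50. None of the other 4 comparisons run passed the test for CPT1B. Its log2 fold change was -0.12 by day 9 against day 0, then -0.07 by day 11, -0.15 by day 30 and -0.51 by day 90, each against the time compared before it and with a 95% interval that included 0. The wells of day 30 ranged from 8.59 to 25.1 CPM. In the annotation, 66.4% of the exonic bases of CPT1B are shared with the readthrough gene CHKB-CPT1B on the same strand, so reads may have been split between them. With the counts of both genes summed, the log2 fold change from day 9 to day 90 was -0.84 (adjusted p = 0.017).

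CPT1A, the form of liver and of the fetal heart, moved the other way. It was at 9.23, 12.3, 12.7, 13.3 and 15.3 CPM at day 9 and at 20.5, 24.1 and 24.5 CPM at day 90. The ranges in CPM were apart, and the log2 fold change was 0.87 (SE 0.27, adjusted p = 0.010). With TPM the wells of CPT1A overlapped, at 0.76 to 2.46 on day 9 and 1.31 to 2.35 on day 90. The log2 fold change of CPT1A was then 0.43 (adjusted p = 0.38). Its highest late values were at day 30, with 26.2, 35.0 and 48.5 CPM. CPT1C, the form of neurons, fell from 25.4 ± 3.39 CPM (SD, n = 5) to 14.1 ± 1.19 (SD, n = 3), a log2 fold change of -0.85 (SE 0.23, adjusted p = 0.0032). CPT2, the inner-membrane transferase, and SLC25A20, the carnitine-acylcarnitine carrier, had log2 fold changes of -0.24 (95% interval -0.674 to 0.187) and -0.21 (-0.608 to 0.193). SLC25A20 had risen earlier, from 4.79, 5.46 and 5.71 CPM at day 0 to between 12.6 and 19.6 CPM at day 9 (log2 fold change 1.51, SE 0.22, adjusted p = 3.3e-07).

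The balance of the CPT1 forms was compared within each library in TPM, where levels of different genes can be set side by side. CPT1B made up 48.4% ± 4.23 of the summed CPT1A, CPT1B and CPT1C at day 9 (SD, n = 5) and 37.9% ± 7.80 at day 90 (SD, n = 3). The share of CPT1A was smaller, 9.74% ± 3.06 at day 9 and 16.0% ± 6.91 at day 11. It reached 28.4% ± 3.68 by day 30, with 27.7% ± 5.65 in the oldest cultures. The lowest well of day 90 (23.3%) was above the highest of day 9 (14.5%). The log2 ratio of CPT1B to CPT1A was highest at day 5, at 4.71 ± 0.507 (SD, n = 5), and was 2.27 ± 0.490 at day 9. The wells of day 30 gave 0.367 ± 0.407 and those of day 90 gave 0.427 ± 0.522. The last 2 did not differ beyond their spread. These ratios are given as a description, without a test.

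The acyl-CoA dehydrogenases, which open each cycle of oxidation, showed small differences. ACADM, for medium chains, was at 38.7, 44.8, 47.9, 54.8 and 54.8 CPM at day 9 and at 57.7, 62.4, 65.5, 74.1 and 75.1 CPM at day 11. The ranges did not overlap, with a log2 fold change of 0.47 (SE 0.13, adjusted p = 0.028), and the call was lost in 10 of 20 alternatives, including the one without replicates 1 and 2 of day 11 (0.36, adjusted p = 0.13). At day 90 ACADM was 0.45 above day 9 (adjusted p = 0.011), a call lost without replicate 2 or 5 of day 90 (adjusted p 0.10 and 0.15), and -0.19 with TPM. ACADVL, for very long chains, was the most abundant of the 4 in CPM, at 175 ± 12.7 at day 9 and 203 ± 81.8 at day 90, and did not pass (log2 fold change 0.22, 95% interval -0.128 to 0.566). ACADS, for short chains, had a log2 fold change of 0.68 with an adjusted p of 0.063. ACADL, the long-chain enzyme, was the lowest of the 4 in CPM, at 1.14 ± 0.874 CPM at day 9 and 3.27 ± 2.13 CPM at day 90. Its call of a rise (log2 fold change 1.53, adjusted p = 0.031) was lost in 10 of 17 alternatives, among them those without replicate 1, 2 or 3 of day 9 or replicate 2 or 5 of day 90 (adjusted p 0.065 to 0.29).

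Among the 7 enzymes of the later steps, 4 rose from day 9 to day 90 and none fell. ACAT1, the mitochondrial acetoacetyl-CoA thiolase that also serves ketone bodies, rose most. It was at 15.5, 16.9, 17.2, 17.3 and 20.4 CPM at day 9 and at 63.9, 71.3 and 88.5 CPM at day 90 (log2 fold change 2.09, SE 0.17, adjusted p = 1.5e-12). Every well of day 90 was above every earlier one, but the gene had fallen at first. ACAT1 fell by 0.54 from day 0 to day 9 (adjusted p = 0.0074), rose by 0.66 from day 11 to day 30 (adjusted p = 0.0043) and by another 0.93 up to day 90 (adjusted p = 0.0016). The rise to day 30 was lost in 5 of 18 alternatives, among them the one without replicate 10 of day 30 (0.36, adjusted p = 0.19). That to day 90 was lost in 3 of 15, among them the one without replicate 3 of day 30 (0.67, adjusted p = 0.051). Over these 15 the estimate ran from 0.12 to 1.21, with adjusted p of up to 0.81.

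HADHA and HADHB encode the alpha and beta subunits of the trifunctional protein, which carries out the last 3 steps on long chains. HADHB was at 76.1, 82.7, 88.5, 105 and 106 CPM at day 9 and at 186, 205 and 263 CPM at day 90, with no overlap (log2 fold change 1.25, SE 0.15, adjusted p = 1.5e-08). HADHA, its partner, rose less, from 191 ± 21.6 CPM (SD, n = 5) to 289 ± 32.2 (SD, n = 3), a log2 fold change of 0.60 (SE 0.12, adjusted p = 0.00014) that was 0.05 with TPM (adjusted p = 0.93). The genes lie head to head on opposite strands and overlap at their starts, and whether the counting used the strand is not given in the sources used here. HADH carries out the second oxidation on short and medium chains. It was at 29.8 to 57.2 CPM at day 9 and at 63.9, 75.4 and 82.6 CPM at day 90 (log2 fold change 0.74, SE 0.20, adjusted p = 0.0026). With TPM it was 0.20 (adjusted p = 0.61). The hydratase ECHS1 and the thiolases ACAA1 (peroxisomal) and ACAA2 (mitochondrial) did not pass, with log2 fold changes of 0.32, -0.46 and -0.16 and adjusted p of 0.18, 0.059 and 0.44.

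Of the 3 auxiliary enzymes that handle double bonds, DECR1, the mitochondrial 2,4-dienoyl-CoA reductase, rose. It was at 20.3, 26.7, 26.9, 33.4 and 33.7 CPM at day 9 and at 62.8, 66.9 and 81.9 CPM at day 90, with no overlap (log2 fold change 1.32, SE 0.20, adjusted p = 1.1e-06). The isomerases ECI1 and ECI2 had log2 fold changes of 0.12 (95% interval -0.361 to 0.610) and 0.19 (-0.176 to 0.547).

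Of the 3 genes of electron transfer, 2 rose from day 9 to day 90. ETFDH, the oxidoreductase that hands electrons from ETF to ubiquinone, was at 10.03, 10.05, 11.95, 12.02 and 12.7 CPM at day 9 and at 14.0, 15.5, 17.9, 18.8 and 20.4 CPM at day 11. These ranges did not overlap, and the log2 fold change was 0.61 (SE 0.13, adjusted p = 0.0041). It held without replicates 1 and 2 of day 11 (0.75, adjusted p = 0.00075) and was lost with TPM (0.46, adjusted p = 0.96). At day 30 ETFDH was at 30.2, 34.1 and 36.7 CPM, a further 0.96 (SE 0.14, adjusted p = 4.5e-06). Day 90, at 33.9, 36.4 and 48.1 CPM, overlapped day 30 and did not pass against it (0.23, 95% interval -0.0878 to 0.548). From day 9 to day 90 the log2 fold change was 1.80 (SE 0.14, adjusted p = 1.3e-12). ETFA and ETFB, the ETF subunits, had log2 fold changes of 0.41 (SE 0.14, adjusted p = 0.016) and 0.26 (adjusted p = 0.36), and the call for ETFA was lost when any of the 3 day 90 wells was left out (adjusted p 0.072 to 0.081). Both had risen from day 0 to day 9, by 0.95 and 1.15 (adjusted p = 6.9e-07 and 6.2e-05), while ETFDH had not passed (0.09).

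Of the 7 regulators, 4 rose from day 9 to day 90. PPARD, the most widely expressed PPAR, was at 7.67, 8.68, 8.72, 9.11 and 9.63 CPM at day 9. It was at 15.8, 16.0 and 23.7 CPM at day 30 and at 28.7, 34.9 and 46.6 CPM at day 90. None of these 3 groups overlapped another. PPARD rose by 0.81 from day 11 to day 30 (SE 0.16, adjusted p = 0.00028) and by a further 0.99 up to day 90 (SE 0.18, adjusted p = 0.00049). Over the whole span from day 9 it rose by 2.07 (SE 0.16, adjusted p = 6.3e-13). With TPM the step from day 30 to day 90 was 0.11 (adjusted p = 0.84).

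PPARA, the PPAR best known from liver and heart, had its rise before day 9. It was at 10.1, 11.7 and 12.3 CPM at day 0 and at 54.0, 54.6, 55.3, 55.7 and 59.5 CPM at day 9 (log2 fold change 2.30, SE 0.22, adjusted p = 6.8e-11). The size depended on the processing: over 17 alternatives the estimate ran from 0.97 to 2.37, with adjusted p of up to 0.044. The day 90 wells, at 63.0, 68.4 and 96.2 CPM, were all above day 9, but the difference of 0.44 did not pass (adjusted p = 0.073). PPARA at day 11 split into 37.6 and 39.5 CPM in replicates 1 and 2 and 72.3, 76.1 and 80.7 CPM in the other 3 wells. PPARG, the adipocyte PPAR, was low, at 1.25 to 3.04 CPM at day 9, and at 0.504, 0.986 and 10.6 CPM at day 90. The high well was replicate 4, and the difference did not pass (log2 fold change 1.05, 95% interval -0.104 to 2.21).

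PPARGC1A encodes PGC-1alpha, the coactivator of mitochondrial genes. It was at 3.00, 3.23 and 3.49 CPM at day 0 and at 26.4, 27.0, 44.1, 45.9 and 46.6 CPM at day 9, a log2 fold change of 3.55 (SE 0.44, adjusted p = 1.8e-08). At day 30 the wells were at 59.8, 101 and 229 CPM and at day 90 at 44.5, 53.5 and 112 CPM. The rise from day 11 to day 30 (1.38, SE 0.35, adjusted p = 0.0041) was lost without replicate 3 of day 30 (0.67, adjusted p = 0.23). That from day 9 to day 90 (0.88, SE 0.36, adjusted p = 0.048) was lost without replicate 4 of day 90 (0.37, adjusted p = 0.48) and without replicate 2 or 4 of day 9 (adjusted p = 0.11 in each). The wells of days 9 and 90 overlapped. PPARGC1B, its relative PGC-1beta, ran against it early, with a fall of 1.24 on the log2 scale from day 0 to day 9 (adjusted p = 0.0055). It then rose from 2.46, 3.98, 4.47, 4.52 and 5.07 CPM at day 9 to 7.62, 10.9 and 34.7 CPM at day 90 (log2 fold change 2.11, SE 0.37, adjusted p = 1.6e-05). Replicate 4 of day 90 was again the highest well, and the lowest estimate with 1 well left out was 1.19. That well also had the highest sum of the 10 cardiomyocyte markers, 93700 CPM against 28300 and 30400 CPM in the other 2, and the part of this in the result was not tested.

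ESRRG, the ERR form abundant in heart, was at 2.28, 2.38 and 3.69 CPM at day 0 and at 13.4, 16.2, 19.4, 21.9 and 22.5 CPM at day 9 (log2 fold change 2.74, SE 0.33, adjusted p = 9.6e-09). Its day 30 wells were at 30.5, 51.1 and 78.5 CPM, above every well of day 11 (log2 fold change 1.45, SE 0.28, adjusted p = 0.00018). Day 90, at 37.2, 44.1 and 75.2 CPM, was 1.48 above day 9 (SE 0.28, adjusted p = 4.3e-05) and did not differ detectably from day 30 (-0.03, 95% interval -0.652 to 0.586). ESRRA was at 28.5, 30.7, 32.9, 41.3 and 56.9 CPM at day 9 and at 56.3, 60.2 and 61.3 CPM at day 90, and did not pass (0.64, adjusted p = 0.12). At day 11 it was at 24.2 and 20.6 CPM in replicates 1 and 2 and at 68.8 to 81.7 CPM in the other 3 wells.

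**Figure D3:**
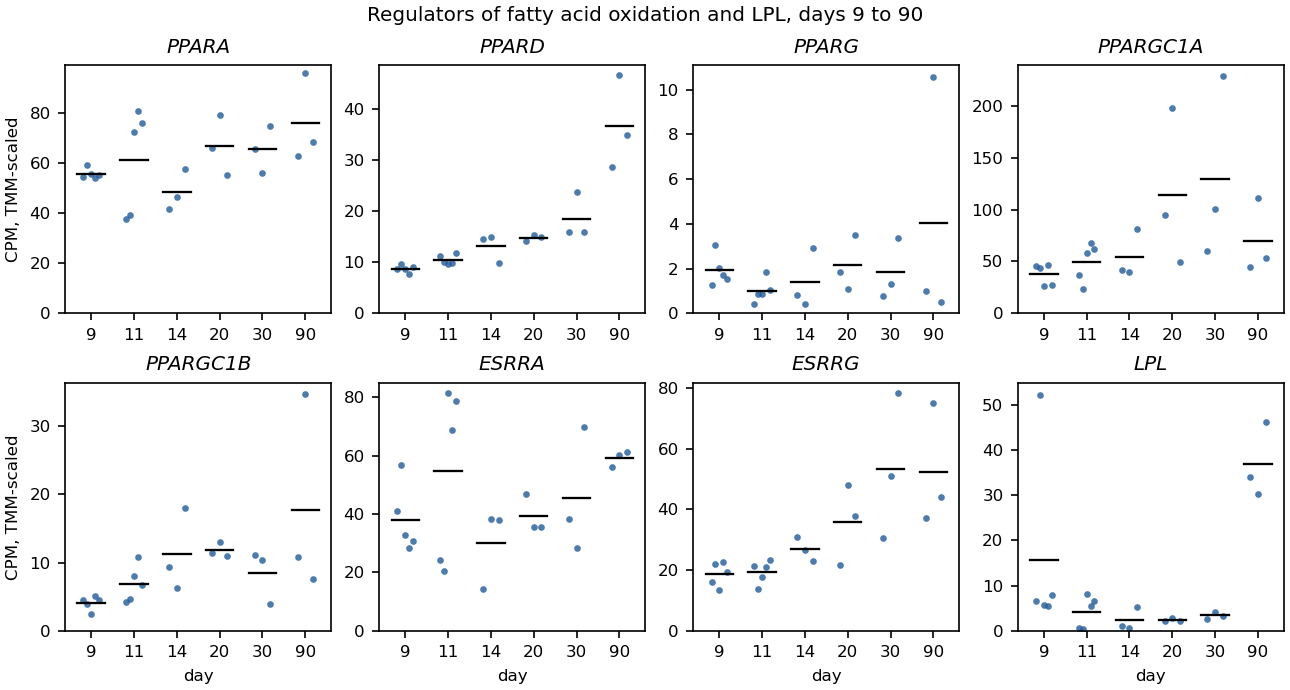
Level of the 7 regulators and of LPL in each library (points; CPM on a linear axis from 0, bar the group mean) at days 9 to 90. PPARD separates day 90 (28.7 to 46.6 CPM) from all earlier days, whereas single high wells set the day 90 mean of PPARG and PPARGC1B and the day 9 mean of LPL.

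From day 0 to day 9, 17 members rose and 6 fell (24.1% and 23.5% of all genes), with a median log2 fold change of 0.64 against 0.08 over all genes. With TPM, 10 rose and 7 fell. At least a 2-fold difference was reached by 12 that rose and 2 that fell (17.1% and 14.6% of all genes). Besides those already given, the rises were those of CD36 (2.41), FABP3 (2.36), PPARG (3.12), CPT1A (0.92), ACADVL (0.64), ACADS (1.29), ACADL (2.10), HADHB (0.76), HADH (0.61) and ACAA1 (1.15), as log2 fold changes. With TPM the calls of CPT1A, ACADVL, ACADL, HADHB, HADH, ACAA1 and ETFA were lost (log2 fold changes 0.18 to 0.88). ACADL was also lost without replicate 1 or 2 of day 0 (adjusted p 0.059 and 0.06), and HADH without replicate 2 (0.061). The falls included CPT1C (-1.13) and ACAA2 (-0.84). Those of ACSL4 and ACAT1 were lost without replicate 1 of day 0 (adjusted p 0.053 and 0.063), ACSL4 also without replicate 2 (0.063), and that of ACSL3 with TPM (0.064). FABP3 went from 6.85, 7.65 and 8.11 CPM at day 0 to the day 9 values above (adjusted p = 3.6e-08). In that interval 4 of the 7 regulators rose and 1 fell.

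From day 9 to day 11, across the change to complete supplement, 3 members rose (ETFDH, FABP3 and ACADM) and 0 fell, where 1.2% of all genes rose and 2.19% fell. None of the 3 reached a 2-fold difference, which 0.396% of all genes did upwards and 1.24% downwards. The next in order, ACAT1, CPT1A and ACSL3, had log2 fold changes of 0.50, 0.80 and 0.39 and adjusted p of 0.051, 0.057 and 0.06. CPT1A was at 8.76 and 9.64 CPM in replicates 2 and 1 of day 11 and at 28.9, 30.4 and 31.6 CPM in the other 3 wells. ACSL3 showed the opposite split, at 150 and 158 CPM in that pair and 126 to 139 CPM in the rest. Without that pair 5 members rose, and without the libraries of low RNA integrity 6 rose. From day 11 to day 30, 8 members rose and 0 fell (9.86% and 9.49% of all genes), and 4 of the 8 by at least 2-fold (6.01% of all genes, with 5.5% downwards). They were CD36, FABP3, ETFDH, ESRRG, PPARD, PPARGC1A, ACAT1 and ACSL4 (0.83), and the call of ACSL4 was lost without replicate 3 of day 30 (0.13, adjusted p = 0.76). CPT1A had a log2 fold change of 0.74 with an adjusted p of 0.050 that did not pass.

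From day 30 to day 90, 8 members rose and 0 fell (4.03% and 4.49% of all genes), with a median of 0.26 against -0.07 over all genes. At least 2-fold were 3 of the 8 (2.65% of all genes, with 2.44% downwards). All 3 tested genes of uptake and lipolysis were among them, with CD36, FABP3 and LPL, beside PPARD, ACAT1, HADH (0.81), DECR1 (0.77) and HADHB (0.57). With TPM, 2 members rose and 6 fell, and the median of all genes moved by -0.77. On that scale HADHB, HADH and DECR1 had log2 fold changes of -0.33, -0.02 and -0.10. Without replicate 1 or 3 of day 30, 3 and 2 members rose, and without replicate 5 of day 90, 4 rose. HADHB, HADH and DECR1 each lost the call when any 1 of these 3 wells was left out. These comparisons share wells with one another, so their values are given side by side and not as independent evidence.

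**Figure D4:**
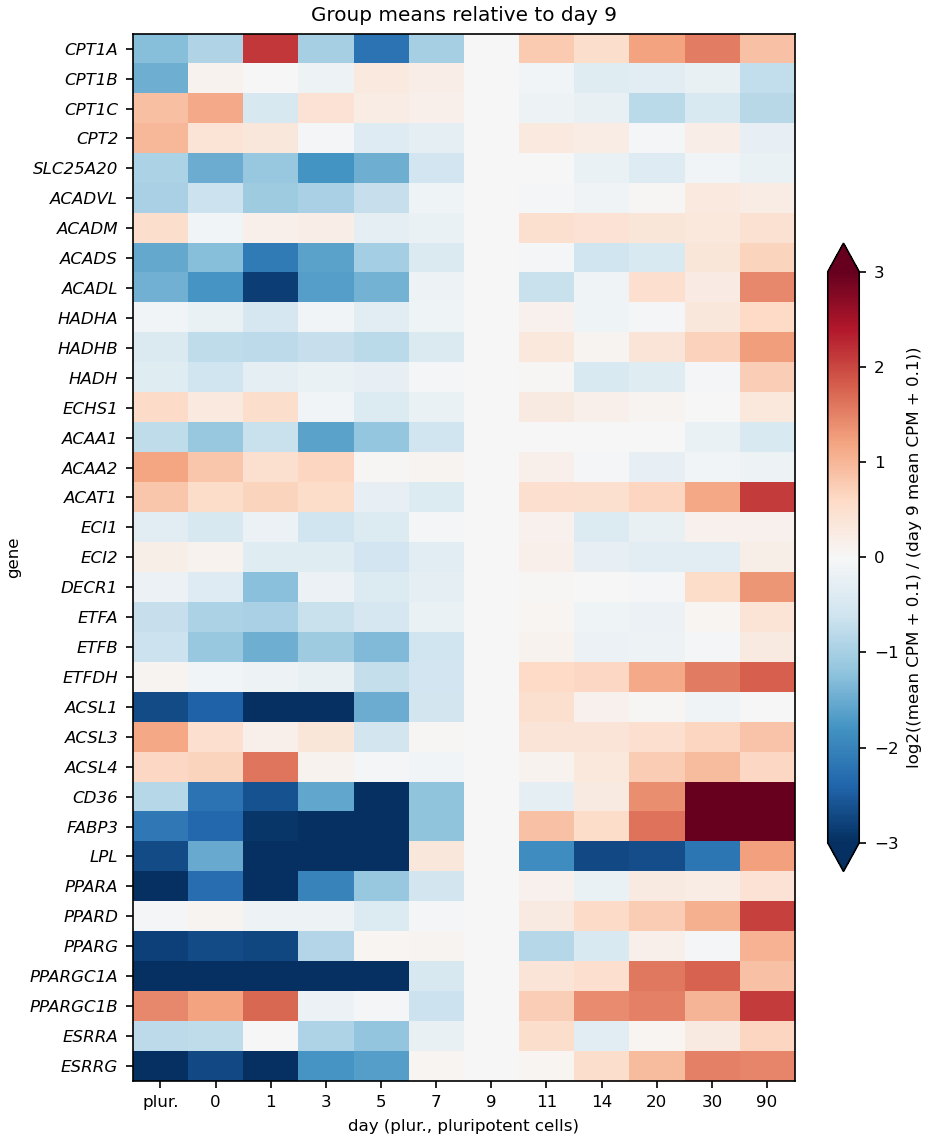
Mean level of the 35 tested genes in each group (columns) as log2 of the ratio to the day 9 mean, with 0.1 CPM added to both (colour; white at day 9, red above, blue below, limits at 3). The regulators PPARA, PPARGC1A and ESRRG and ACSL1 are blue up to day 3. CD36 and FABP3 are also blue at day 0, and they reach the red limit only at days 30 and 90.

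Other genes of the pathway were counted from lists drawn up by function, with earlier results of these data known. From day 9 to day 90, when 18.7% of all genes rose and 19.7% fell, 5 of 17 other genes of uptake, activation and carnitine handling rose (29.4%) and 2 fell. They included the heart fatty acid transport protein SLC27A6 (21.9 ± 8.50 to 151 ± 35.8 CPM, log2 fold change 2.78) and the lipoprotein receptor VLDLR (1.88), while SLC27A3 fell by 1.59. Of 23 other mitochondrial genes of oxidation and ketone use, 7 rose (30.4%) and 2 fell. OXCT1, which starts the use of ketone bodies in heart, rose from 41.3 ± 12.9 to 155 ± 19.1 CPM (log2 fold change 1.91, adjusted p = 7.4e-10), and the thioesterases ACOT9 and ACOT2 rose by 1.34 and 1.76. Of 14 genes of peroxisomal oxidation 5 rose (35.7%) and 1 fell, with a median log2 fold change of 0.24. Of 17 partners of the regulators 4 rose (23.5%) and 5 fell (29.4%), shares near those of all genes. The AMPK subunits PRKAA2 and PRKAA1 rose by 1.63 and 0.86, and HIF1A, the oxygen-sensing factor, fell by 0.93.

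Genes of other energy routes moved as well, and 18.7% of all genes rose and 19.7% fell from day 9 to day 90. Of 24 genes of glycolysis 17 rose and 1 fell from day 9 to day 90, with a median log2 fold change of 0.94 against 0.64 for the fatty acid genes. PGAM2, the muscle mutase, rose by 3.18 and ALDOC by 2.41, and the glucose transporter SLC2A3 fell by 2.60. Of 14 genes of fatty acid synthesis 5 rose (35.7%) and 3 fell (21.4%, near the share of all genes). Among the risers was ACACB (log2 fold change 2.26), whose product malonyl-CoA inhibits CPT1, at 21.5 ± 3.25 and 103 ± 87.7 CPM. Of 14 lipid droplet genes 5 rose (35.7%) and 4 fell (28.6%). The lipase MGLL led the rises (4.28), while PLIN2, the droplet coat protein, fell by 1.09 on the log2 scale. From day 0 to day 9 the synthesis list had no rise and 9 falls, where 24.1% of all genes rose and 23.5% fell. Among the falls were ACACA (-1.59), ACLY (-1.63) and FASN (-1.59).

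The makeup of the cultures moved from day 9 to day 90, when 18.7% of all genes rose and 19.7% fell. Of 10 cardiomyocyte markers 8 rose and 1 fell from day 9 to day 90, and their sum was 10000 to 24500 CPM at day 9 and 28300 to 93700 CPM at day 90. Of 10 endothelial markers 9 fell and none rose, from a sum of 407 to 642 CPM to 58.1 to 215 CPM. CD36 is also known from endothelium, macrophages and platelets. The 7 macrophage and platelet markers summed to 4.96 to 13.5 CPM at day 9 and 2.55 to 5.98 CPM at day 90, and CD14, CSF1R, GP1BA and PF4 had at most 3 counts in every day 90 well. At day 90 the endothelial markers ranged from 0.12 CPM for ESAM to 83.1 ± 64.9 CPM for KDR, with TEK at 20.5 ± 17.4 CPM and EGFL7 at 14.6 ± 1.75 CPM. KDR and TEK were at 38.4 ± 29.7 and 11.7 ± 2.37 CPM at day 30 and did not pass from there to day 90 (adjusted p 0.086 and 0.43). The 10 hepatocyte and visceral endoderm markers summed to 926 to 8980 CPM at day 9 and 11.9 to 225 CPM at day 90. Of the 8 fibroblast markers 3 rose and 2 fell, and of the 7 smooth muscle markers 3 rose. Of 7 proliferation markers 1 fell, and of 6 pluripotency markers 3 fell. The part of these changes in the members' results was not tested.

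Set against TNNT2, a cardiomyocyte sarcomere gene, within each library and in TPM, the log2 ratio of CD36 to TNNT2 was -8.93 ± 0.43 at day 9 (SD, n = 5), -7.49 ± 0.99 at day 30 and -5.33 ± 0.18 at day 90 (SD, n = 3). For FABP3 the ratio was -4.01 ± 0.15, -2.14 ± 0.20 and -1.40 ± 0.09 on the same days. ETFDH did not move beyond its spread on this scale, with -7.37 ± 0.45 at day 9 and -7.25 ± 0.16 at day 90. CPT1B went from -6.21 ± 0.63 to -8.59 ± 0.37, and every day 90 well was below every day 9 well. CPT1A also went down on this scale, from -8.48 ± 0.23 to -9.02 ± 0.15, with no overlap of the wells. ACAT1 was at -6.55 ± 0.31 and -6.04 ± 0.41, with overlapping wells. PPARGC1A was at -6.78 ± 0.30 and -7.43 ± 0.62, with overlapping wells. These ratios were not tested.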

How the data were processed

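RNA of 44 wells was sequenced as stranded total-RNA libraries, per the labels' protocols. The submitters' processing notes name cutadapt, STAR 2.5.2b, RSEM 1.2.31 and the build hg38. The annotation release and the use of strand in counting are not given in the sources used here, so genes that overlap another gene have uncertain values. Among the members these are CPT1B, CPT2, ACADVL, ACADM, HADHA, HADHB, ACAA1, ACAA2, ECI2, DECR1, ETFA, ETFB, ETFDH, ACSL4, CD36 and ESRRA, which share bases with another protein-coding gene.

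The authors deposited estimated counts per gene made with RSEM, of which 93.8% were whole numbers, and TPM values, scaled for transcript length to the same sum in each library. A further deposited table gives the RNA integrity score, the lane (5 lanes; other codes) and the sequencing batch (1 for all). All columns matched a labelled sample (0 did not). Symbols and positions are from GENCODE 29 (GRCh38), which held 56769 of the 60499 identifiers and all 36 members.

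Counts were rounded to whole numbers, filtered with filterByExpr (22955 genes left) and scaled by TMM. In edgeR 4.0.16 (R 4.3.3), all 44 libraries entered a single quasi-likelihood fit whose terms were the 12 group means, with Benjamini-Hochberg adjustment over all genes for 5 comparisons. A gene is said to rise or fall at an adjusted p under 0.05. Levels are CPM on TMM-scaled totals, given per well or as mean ± SD. A floor of 3 counts covers counting error only. The steps were tested on simulated data. Alternatives were RLE size factors, DESeq2 1.42.0, no filter, only the compared groups, a 2-fold minimum, limma 3.58.1 on log2(TPM + 0.1) with or without rescaling to protein-coding genes, a replicate block, the lane as a factor, CPT1B summed with its readthrough gene, and each well left out. Leaving out libraries of RNA integrity 8 or lower, and replicates 1 and 2 of day 11, was chosen after seeing the data.

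The members, lists and rule for named genes were chosen with earlier results of these data known. The rule names every member, gives each well for CPT1B, CD36, FABP3, the regulators and up to 6 members with the smallest adjusted p per comparison, and takes up to 3 genes with the smallest adjusted p from other lists. Other named genes were chosen after their values were seen. Promoter sequences are from RefSeq (GRCh38.p14), which had entries for 30 members. Figures were drawn with matplotlib 3.10.9.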

Additional observations from a re-analysis of the deposited data

Results flagged for a closer look

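Among 42 groups of 5 wells checked, covering 21 members at days 9 and 11, 2 held a well whose gap to the rest was large for the group's range. Chance alone flags about 1 in 20 such groups. LPL in replicate 10 of day 9 was at 52.3 CPM, against 5.54 to 8.0 CPM in the other 4 wells. DECR1 in replicate 2 of day 11, at 32.9 CPM, stood above the 27.3 to 28.1 CPM of the others.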

How the results depend on the processing

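Of 1130 values for 66 gene-by-comparison results, 992 were on the same side of the threshold as reported and 133 lost the call. The other 5 changed the sign of a called result. Direction was not compared where neither fit passed. There the estimate for CPT1B crossed 0, at -0.39 to 0.23 (day 9 to 11) and -0.50 to 0.14 (day 11 to 30). The 5 sign changes of called results were all from limma on TPM: HADHB (-0.33), HADH (-0.02) and DECR1 (-0.10) from day 30 to day 90, and ACADM (-0.19) and ETFA (-0.04) from day 9 to day 90. That scale moved the median of all genes by -0.38 (day 0 to 9), 0.04, 0.20, -0.77 (day 30 to 90) and -0.54 (day 9 to 90) in log2, and the cause of the differences was not tested. No alternative moved FABP3 or CD36 across the threshold from day 9 to day 90.

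Day 0 to 9: limma on TPM gave 10 higher, and the 2-fold minimum gave 2 lower. Leaving out 1 well gave 15 to 19 higher and 4 to 6 lower. Day 9 to 11: limma on TPM and the 2-fold minimum each gave 0 higher, and RLE, DESeq2 and the integrity limit each 6. The omission of replicates 1 and 2 of day 11 gave 5. Leaving out 1 well gave 1 to 5 higher, namely 5 without replicate 10 of day 9 and 1 without replicate 2, 3 or 4 of day 9 or replicate 7 of day 11. The range for members lower was 0 to 0.

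Day 11 to 30: the 2-fold minimum gave 4 higher, and the fit on the compared groups alone and limma on TPM each gave 5. With 1 well left out 7 to 9 were higher and 0 to 1 lower, the 1 without replicate 1 of day 30. Day 30 to 90: the 2-fold minimum gave 3 higher, the compared groups alone 1, and limma on TPM 2 with 6 lower. Leaving out 1 well gave 2 to 8 higher and 0 to 1 lower, the 1 without replicate 4 of day 90. Day 9 to 90: the 2-fold minimum gave 10 higher and 0 lower, and limma on TPM 6 and 5. For members lower, RLE, no filter and the integrity limit each gave 1, and rescaled TPM 4. With 1 well left out 14 to 21 were higher and 1 to 2 lower, 1 without replicate 2 or 5 of day 90.

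The deviations of same-numbered wells from their group means had a mean correlation of 0.000826 over 3 numbers for day 0 to 9, 0.133 and 0.126 over 2 numbers for days 9 to 11 and 9 to 90, and -0.3 for the 1 number shared by days 11 and 30. The labels name nothing that the numbers share, so the wells were not treated as pairs. With a replicate block, 17 higher and 6 lower, 4 and 1, 8 and 1, 9 and 0, and 17 and 3 members were called in the order above, with day 9 to 90 last. Groups of 3 wells limit all late comparisons, and all day 90 wells were on lanes 4 and 5. With the lane as a factor 16 members were higher and 3 lower from day 9 to 90.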

Other observations

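CPT1A had a separate early peak at day 1. That day followed CHIR99021 and was also the first sampled day in RPMI with B27 lacking insulin. These changes cannot be told apart here. CPT1A was at 6.25, 6.71 and 6.89 CPM at day 0, at 51.6, 56.3 and 57.1 CPM at day 1 and at 5.77 to 6.79 CPM at day 3. The 3 wells of day 1 were above every other library of the series, of which the highest was at 48.5 CPM. CPT1B was at 18.2, 19.7 and 24.1 CPM at day 1, and its log2 ratio to CPT1A in TPM went from 3.35 ± 0.167 at day 0 to 0.297 ± 0.188 (SD, n = 3 each). ESRRA was also above day 0 in all 3 wells of day 1, at 34.43, 38.02 and 41.81 CPM against 20.5, 22.5 and 23.7 CPM. These values were noticed in the data and were not tested.

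Pluripotent cells and day 0 differ in laminin coating as well as in day, and the day 0 cells were confluent. Coating, culture density and day cannot be told apart here. CPT1B was at 6.47 to 9.66 CPM in the 3 pluripotent wells and at 22.1 to 22.9 CPM at day 0, with no overlap. That difference was not tested.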
